A study of Mus musculus with 2 samples.

Results

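The genes described here are the mouse microRNA (miRNA) genes whose symbol is Mir followed by a number from 1000 to 4999, with any suffix. Numbers are given to miRNAs in order of report, so these are later-named genes, chosen by symbol and not by a measured value. Of 1973 counted gene identifiers, 156 carried such a symbol. The 3 of them that lie in the stretches of chromosome 2 from 10370000 to 10600000 and chromosome 12 from 109705000 to 109750000 (Mir1193, Mir1197 and Mir3072) were left out, and 153 members remained. A further 23 genes of the annotation with such numbers have no row in the tables and were not analysed here.

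The study profiled small RNA under 30 nucleotides in whole thymus, the organ where T cells mature. Both lobes were taken from newborn (postnatal day 0) mice of strain B6NCrl, pup 2 for replicate 1 and pup 3 for replicate 2, both littermates with sex not recorded and no treatment named. Both pups bear 1 donor identifier in the labels. These 2 libraries form 1 group, so no condition can be compared.

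A miRNA is cut from a hairpin in a longer transcript. In the usual route the Microprocessor, formed by Drosha and Dgcr8, frees the hairpin and Dicer trims it to a short duplex. One strand enters an Argonaute protein and pairs with target RNAs mainly through its seed, bases 2 to 8. Other routes exist: a mirtron is a short intron that folds into a hairpin once the spliceosome has removed it, and some small RNAs listed as miRNAs are pieces of transfer RNAs. Many later-named miRNAs came from deep sequencing and are known from low read numbers.

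The mature sequences that RefSeq lists for the leading members are given first, from its GRCm38.p6 records, 5′ to 3′, with the seed in capitals. RefSeq held an entry for 138 of the 153 members. These are the mature RNAs of the 6 most abundant members. The counts do not separate the arms of a hairpin, so which arm was read is unknown. A sequence listed here need not be the RNA that was counted.
miR-1983: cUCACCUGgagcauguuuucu
miR-1306-5p: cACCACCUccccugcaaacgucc
miR-1306-3p: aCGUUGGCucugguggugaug
miR-3074-5p: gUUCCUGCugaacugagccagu
miR-3071-5p: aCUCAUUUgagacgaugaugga
miR-3071-3p: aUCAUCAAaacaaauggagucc
miR-1981-5p: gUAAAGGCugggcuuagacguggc
miR-1981-3p: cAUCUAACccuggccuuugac
miR-1198-5p: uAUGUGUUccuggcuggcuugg
miR-1198-3p: aAGCUAGCcucuaacucauggc

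Values are counts on the strand of the gene, and levels are such counts scaled to a library total of 1000000 (CPM). The libraries held 2734133 and 1289151 gene-strand counts, so the 3 counts that an observed 0 still allows equal 1.10 CPM in replicate 1 and 2.33 CPM in replicate 2. Reads that map to several places (56.3% and 57.5% of the reads tallied) were kept apart from the genes, so a member that shares its sequence with another locus can be undercounted. Thymocyte and thymic epithelial miRNAs stood as the tissue label says, with Mir181a-1 at 37220 and 36043 CPM and Mir205 at 9346 and 10404 CPM. Markers of other tissues were lower: liver Mir122 had 77.9 and 120 CPM, muscle Mir206 445 and 442, red-cell Mir451a 144 and 82.2, and heart Mir208b 21.9 and 185. Mir124a-1 of neurons and Mir133a-1 of muscle were at 0, but both share sequence with other loci. In whole tissue, fewer cells of a type and less RNA per cell cannot be told apart. Intervals and floors cover the counting error of reads only, not differences between animals or libraries. No molecular identifiers are described, so repeat reads of the same molecule cannot be told apart.

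Detection meant at least 10 counts in both libraries, and 19 of 153 members (12.4%) met it, beside 14.9% of all counted genes, a share near their own. A further 66 members had counts but fewer than 10 in a library, and 68 members (44.4%) had 0 in both libraries, against 65.3% of all counted genes. Members took 4234 counts in replicate 1, a share of 0.155% (95% exact binomial interval 0.150 to 0.160), and 2094 counts in replicate 2, a share of 0.162% (0.156 to 0.170). The mean share was 0.159% ± 0.00536 (SD, n = 2), and the 19 detected genes held 91.7% and 91.6% of it in the respective library. Counted in each library alone, 31 members reached 10 counts in the deeper replicate 1 and 20 in replicate 2.

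**Figure D1:**
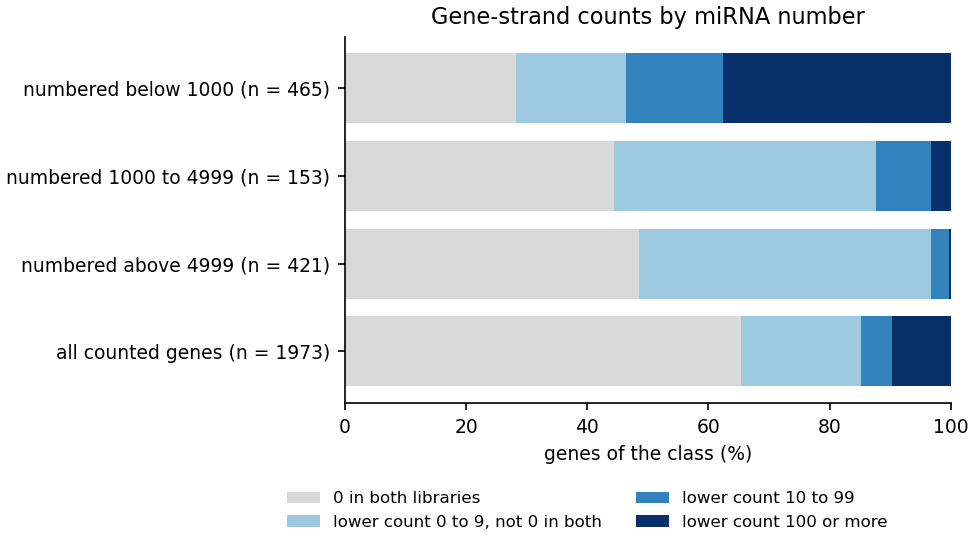
Share of genes, in percent, by their gene-strand counts, for miRNA genes numbered below 1000, the members (1000 to 4999), genes numbered above 4999, and all counted genes. "Lower count" is the smaller count of both libraries. Of the members, 44.4% had 0 counts in both libraries and 12.4% at least 10 in both, against 53.5% detected among genes numbered below 1000 and 3.33% among genes numbered above 4999.

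By number, detection was 249 of 465 genes (53.5%) for numbers below 1000 and 14 of 421 (3.33%) for numbers above 4999, with the members between them. These shares are descriptions and were not tested. Within the members, 10 of 76 genes with numbers from 1000 were detected, 1 of 4 from 2000 and 8 of 73 from 3000, and no member had a number from 4000 upward. The detected members had a median level of 20.03 CPM, against 437 CPM for the 249 detected genes numbered below 1000, 22.3 CPM for the 14 numbered above 4999 and 239 CPM for all 294 detected genes. On the log2(CPM + 1) scale the medians were 4.39 for the members and 7.91 for all detected genes. The highest member, Mir1983, held place 121 among all counted genes.

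A few genes carried most of the members' counts. The top 5 held 76.1% of the members' summed mean CPM and Mir1983 alone 33.5%. The plot of the detected levels shows a wide range from Mir1983 to Mir1198 and then a group of 13 genes under 30 CPM on average.

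**Figure D2:**
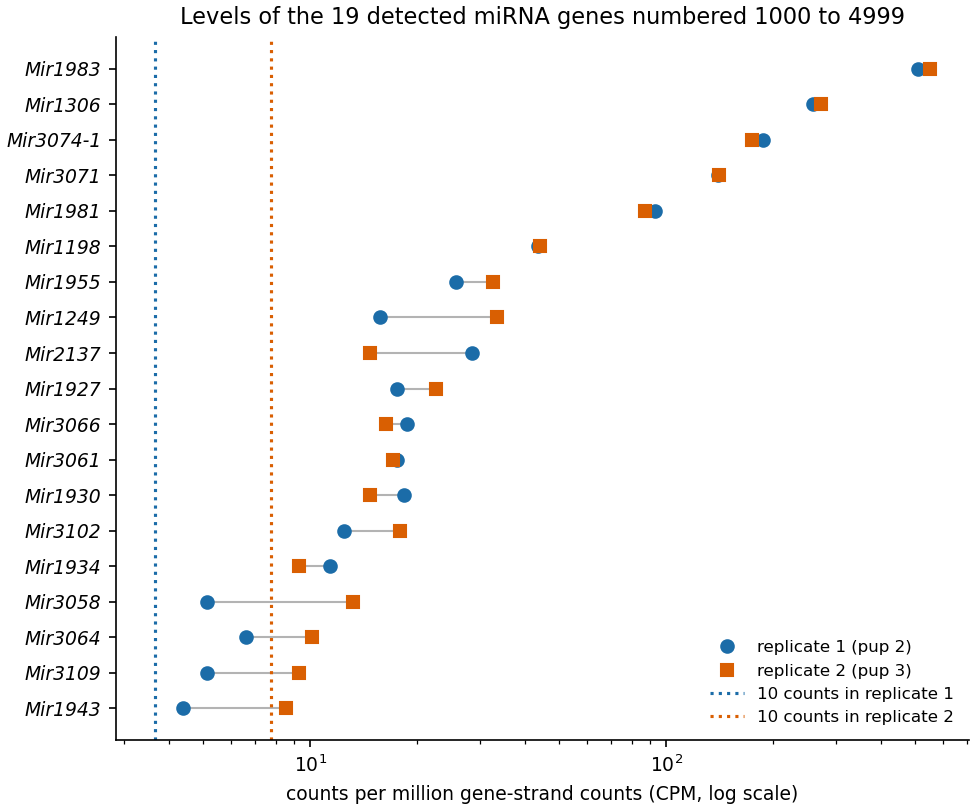
Level in CPM (log axis) of the 19 detected members in replicate 1 (circles) and replicate 2 (squares), ordered by mean, with dotted lines at 10 counts in each library. Levels ran from 531 CPM for Mir1983 to 6.46 CPM for Mir1943, and the symbols of the top 6 genes nearly coincide.

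Mir1983 (ENSMUSG00000088148.1, GRCm38 chromosome 13, 21896918 to 21897049, minus strand) led, with 1397 counts in replicate 1 and 710 in replicate 2. These equal 511 and 551 CPM, or 531 ± 28.1 (SD, n = 2). No other gene of GENCODE M21 overlapped it, and the nearest gene there that is not a miRNA gene lay 6107 bases away. That annotation lists no transfer RNA gene at this place. No separate list of transfer RNA genes was used, so this absence does not show that none lies there. miR-1983 is known to lie at the end of an isoleucine transfer RNA gene, and its hairpin is shown for that reason, with the mature RNA in capitals (DNA letters, GENCODE M21).
Mir1983: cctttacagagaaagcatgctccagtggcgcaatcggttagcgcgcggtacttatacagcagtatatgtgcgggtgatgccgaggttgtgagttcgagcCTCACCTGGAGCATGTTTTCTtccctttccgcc
Transfer RNA genes carry an internal promoter with an A box and a B box. The A box letters (TNGC, 6 bases of any kind, GG), followed after 20 to 80 bases by the B box letters GTTCGANNC, were searched on both strands of 1894 hairpins, and 1 hairpin (0.0528%), that of Mir1983, held them. The match is a description of the sequence. The tables count reads per gene and cannot tell a processed miRNA from another fragment of the same transcript. Sharing of 20 bases was searched among counted miRNA genes only. Copies of this hairpin's sequence in transfer RNA genes were not searched, so its level can be undercounted. The seed of miR-1983 is shared with miR-412-3p.

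Mir1306 (ENSMUSG00000080452.2, chromosome 16, 18284239 to 18284317, minus strand) was next, with 708 and 351 counts, or 259 and 272 CPM. All 79 bases of its hairpin lie in coding sequence of an exon of Dgcr8, the RNA-binding partner of Drosha. The difference between the littermates did not pass the test, and neither arm shares its seed with another mature miRNA of the RefSeq table.

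Mir3074-1 (ENSMUSG00000092741.1, chromosome 13, 63301199 to 63301283, minus strand) had 511 and 224 counts, or 187 and 174 CPM. It lies in an intron of Fancc, a gene of DNA crosslink repair, opposite Mir24-1 of the cluster with Mir23b and Mir27b. miR-3074-5p and miR-24-3p pair over 20 bases, marked in capitals.
miR-3074-5p: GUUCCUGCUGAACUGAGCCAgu
miR-24-3p: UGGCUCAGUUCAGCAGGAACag
Mir3074-1 was the detected member that shares 20 bases with another counted miRNA gene, Mir24-2, and miR-3074-5p also occurs at Mir3074-2. A read of the whole miR-3074-5p maps to several places, and such reads were kept apart from the genes. Which RNA gave the 511 and 224 counts is therefore unknown, and the level of miR-3074-5p is uncertain. On the strand counted as opposite to it, it had 116 reads in replicate 1 and 89 in replicate 2. Those were 18.5% (exact interval 15.5 to 21.8) and 28.4% (23.5 to 33.8) of the reads over the locus. In M21 Mir24-1, which has no row of its own, lies opposite. The tables carry an earlier version of Mir3074-1, so which of its columns holds the Mir24-1 strand could not be checked. Another 5 members had 1 or 2 reads in all on the strand counted as opposite to theirs. In the cluster on the opposite strand, Mir23b had 18560 CPM ± 559 and Mir27b 3676 ± 284.

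Mir3071 (ENSMUSG00000070129.1, chromosome 12, 109595318 to 109595397, minus strand) had 383 and 181 counts, or 140 CPM in each library. In GENCODE M21 all 80 bases lie in the coding sequence of Rtl1, an imprinted gene of the Dlk1-Dio3 region, and opposite Mir136, which has no row of its own. The tables carry version 1 of this identifier and M21 carries version 2. The strand and extent used for counting may therefore differ from M21, and whether these reads are miR-3071 or miR-136 cannot be told apart here. Mir1306 and Mir1956, the last with 0 counts, also carry an earlier version than in M21. Without Mir3071, Mir3074-1, Mir1306 and Mir1956 the share of counts was 0.100% and 16 members were detected.
Other members of the same imprinted region were not detected. Mir3070a had 1 and 2 counts and Mir3070b 0 in both, and these genes share sequence with each other. Mir1188 had 2 and 2 counts and Mir1247, within Dio3os, had 4 and 8. Mir1906-1, within Meg3, had 0 in both libraries and shares sequence with Mir1906-2. The stretch of chromosome 12 that was left out lies between Mir3071 and Mir1247. Of the 3 genes left out by position, 2 were detected, the highest at 170 CPM, so the members do not describe the whole region.

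Whole-intron hairpins were 5 of the 87 members in introns of coding genes. In these 5 the hairpin starts at the first and ends at the last base of an intron of 74 to 104 bases, against a median intron of 6838.5 bases over the 87. All 5 begin with GT and end with AG, the splice site letters, marked in capitals (DNA letters, GENCODE M21).
Mir1981: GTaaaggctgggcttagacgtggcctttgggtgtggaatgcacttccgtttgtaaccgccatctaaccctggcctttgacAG
Mir3102: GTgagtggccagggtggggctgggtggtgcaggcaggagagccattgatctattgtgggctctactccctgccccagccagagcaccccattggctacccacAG
Mir3547: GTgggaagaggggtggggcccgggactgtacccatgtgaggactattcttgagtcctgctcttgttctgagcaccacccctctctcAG
Mir1982: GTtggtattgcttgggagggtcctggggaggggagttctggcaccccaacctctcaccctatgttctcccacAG
Mir1224: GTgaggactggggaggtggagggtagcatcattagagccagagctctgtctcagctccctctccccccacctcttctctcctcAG
Mir1981 (ENSMUSG00000088559.1, chromosome 1, 184822407 to 184822488, minus strand), in Marc2, a mitochondrial reductase gene, had 255 and 112 counts, or 93.3 and 86.9 CPM. Mir3102 (ENSMUSG00000093296.1, chromosome 7, 100882306 to 100882409, minus strand), in Arhgef17, had 34 and 23 counts, or 12.4 and 17.8 CPM. RefSeq lists 4 mature RNAs for Mir3102, whose hairpin thus holds an outer and an inner pair. The others fell short of detection: Mir3547 in Baiap3 had 16 and 8 counts, Mir1982 in the antizyme gene Oaz1 had 12 and 3, and Mir1224 in Vwa5b2 had 0 and 2. Together the 5 took 317 and 148 counts, most of them from Mir1981.

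Intronic members without such ends supplied most of the other detected genes. Mir1198 (ENSMUSG00000080645.1, chromosome X, 7807101 to 7807221, plus strand), in the endosomal gene Gripap1, had 119 and 57 counts, or 43.5 and 44.2 CPM. Mir1955 (ENSMUSG00000088639.1, chromosome 2, 92191977 to 92192074, plus strand), in Phf21a, a histone reader gene, had 70 and 42 counts. Mir1927 (chromosome 1, 160295864 to 160295972, minus strand), in Rabgap1l, had 48 and 29. The ratio between the littermates did not pass the test for any of these genes.
Mir3066 in Nol10 had 51 and 21 counts and Mir1930 in Ube2g2, an enzyme gene of protein degradation, 50 and 19. The lowest were Mir3064 in the RNA helicase gene Ddx5, with 18 and 13, Mir3109 in Anxa2, with 14 and 12, and Mir1943 in Tmem184b, with 12 and 11. The hairpin of Mir3064 reaches 1 base past the 3′ end of its intron into the exon. Outside introns, Mir3061 lay in the untranslated 3′ part of an exon of Ppp2ca, the catalytic subunit gene of phosphatase 2A, with 48 and 22 counts. Mir1934 lay outside genes, 401 bases from Mpdu1, with 31 and 12.

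**Figure D3:**
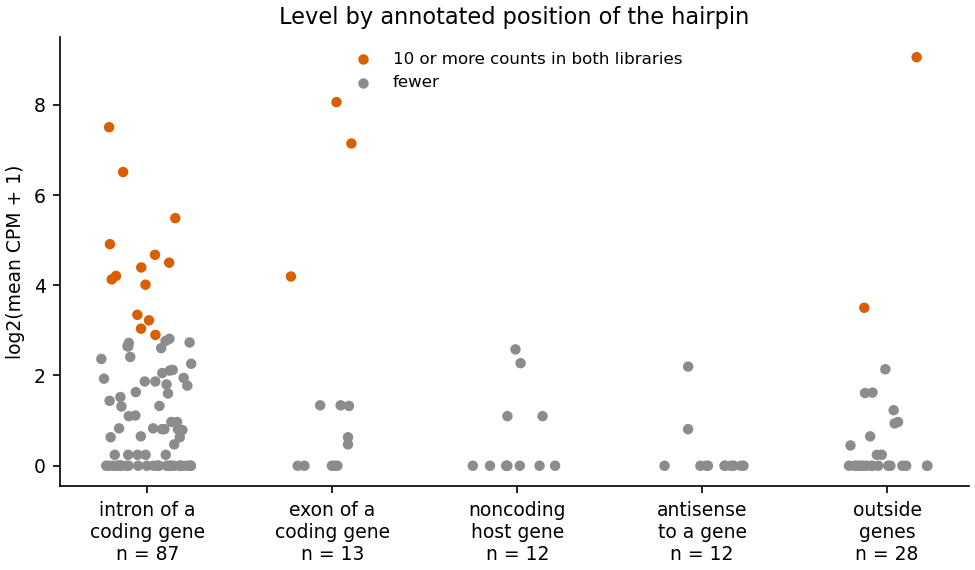
Mean level of each member, as log2(mean CPM + 1), by the annotated position of its hairpin in GENCODE M21; orange points had at least 10 counts in both libraries. Detected members lay in introns (14 of 87) or exons (3 of 13) of coding genes on their own strand or outside genes (2 of 28), and 1 member inside a coding gene but outside its coding transcripts is not drawn.

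Most members, detected or not, lay in coding genes. Of members on the strand of a coding gene, 14 of 87 in introns (16.1%) and 3 of 13 in exons (23.1%) were detected. The share was 12.4% for all members and 14.9% for all counted genes, for which positions were not compared. None of 12 in noncoding hosts and none of 12 that lie only opposite a gene were detected, where 8 and 10 genes had 0 counts in both libraries. Outside the genes of M21, 2 of 28 were detected, Mir1983 and Mir1934. With a counted miRNA gene within 10000 bases, whatever its level, 4 of 13 members were detected, and without, 15 of 140. Of those 4, Mir1306 and Mir3064 had neighbours at 0.18 and 0 CPM. Mir3074-1 and Mir3071 had neighbours of up to 18560 and 2263 CPM. These numbers of members are small and were not tested.
Members that share sequence were mostly at 0. Of 25 members that share 20 bases with another counted miRNA gene, 19 had 0 in both libraries and 1 was detected, against 49 and 18 of the 128 that share none. Among the 19 are the Mir3470, Mir3471 and Mir3472 genes and 4 of the Mir3473 genes. A count of 0 there is no limit on the mature RNA.
Base content and folding were close between detected members and the others, and were not tested. The median hairpin had 53.8% G and C in detected members and 52.9% in the others, a length of 85 and 84 bases, and a predicted folding energy of -0.422 and -0.443 kcal/mol per base. Against genes numbered below 1000, members had more G and C, with medians of 53.1% and 46.7%.

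Some seeds of detected members recur in other miRNAs. Of 33 mature RNAs that RefSeq lists for 18 detected members, 5 share bases 2 to 8 with another mouse miRNA of the table, beside 30 of 172 for members not detected. Beside miR-1983 these are shown here, with the seed in capitals.
miR-3102-5p: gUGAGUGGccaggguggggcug
miR-3058-3p: uUCCUGUCagccgugggugcc
miR-3064-5p: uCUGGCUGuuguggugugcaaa
miR-1943-5p: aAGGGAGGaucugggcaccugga
Their seed partners are miR-702-5p, miR-7681-5p, miR-3085-3p and, for miR-1943-5p, miR-149-3p, miR-6967-5p and miR-7016-5p. miR-1961, which has the seed of the let-7 family, and miR-1928, which has that of miR-221 and miR-222, come from members with 0 counts in both libraries. Such counts allow up to 1.10 CPM in replicate 1 and 2.33 CPM in replicate 2, unless reads of these RNAs map to several places. RefSeq lists both at 17 bases, and whether they recur elsewhere in the genome was not tested.

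Each of the 294 detected genes was compared between the littermate libraries. The test was exact binomial and two-sided, with the split of counts set by the scaled library sizes and Benjamini-Hochberg adjustment at 0.05 over all genes tested. This sets 2 libraries against each other by counting error and tests no condition. The test called 3 of 19 members (15.8%), against 43.5% of all genes tested. Members had fewer counts, with a median of 50 in replicate 1 against 662. Among genes with under 100 counts in a library, 3 of 14 members and 9 of 89 other genes were called. Of the members, 2 were higher in replicate 2, against 20.1% of all genes, and 1 was lower, against 23.5%. Over all genes that is 59 higher and 69 lower, or 72 and 52 when scaled to total assigned counts.

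Mir1249 (ENSMUSG00000080441.1, chromosome 15, 84951526 to 84951623, minus strand), which sits within an intron of 5031439G07Rik, had 43 counts in each library, or 15.7 and 33.4 CPM. After scaling, replicate 2 was higher, by 1.02 on the log2 scale (95% interval from 0.37 to 1.66, and p = 0.00349 by the exact binomial test after adjustment). Its mature RNA, rich in C, is shown with the seed in capitals, as is that of Mir2137.
miR-1249-3p: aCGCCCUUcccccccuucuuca
miR-2137: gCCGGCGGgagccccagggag
Mir2137 (ENSMUSG00000089357.1, chromosome X, 72992079 to 72992144, plus strand), in an intron of Zfp185, had 78 and 19 counts, or 28.5 and 14.7 CPM. It was lower in replicate 2, with a log2 ratio of -1.02 (-1.83 to -0.28, and p = 0.0124 by the adjusted exact test). Mir3058 (ENSMUSG00000092867.1, chromosome 10, 95559231 to 95559321, minus strand), which the phosphatase gene Nudt4 holds in an intron, had 14 and 17 counts, or 5.12 and 13.2 CPM, and a log2 ratio of 1.30 (0.19 to 2.43, and p = 0.0304 by the adjusted exact test). Its call was lost when all genes with 1 count in either library were tested (adjusted exact binomial p = 0.100), while the other scalings and both strands gave 0.0274 to 0.0298.

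**Figure D4:**
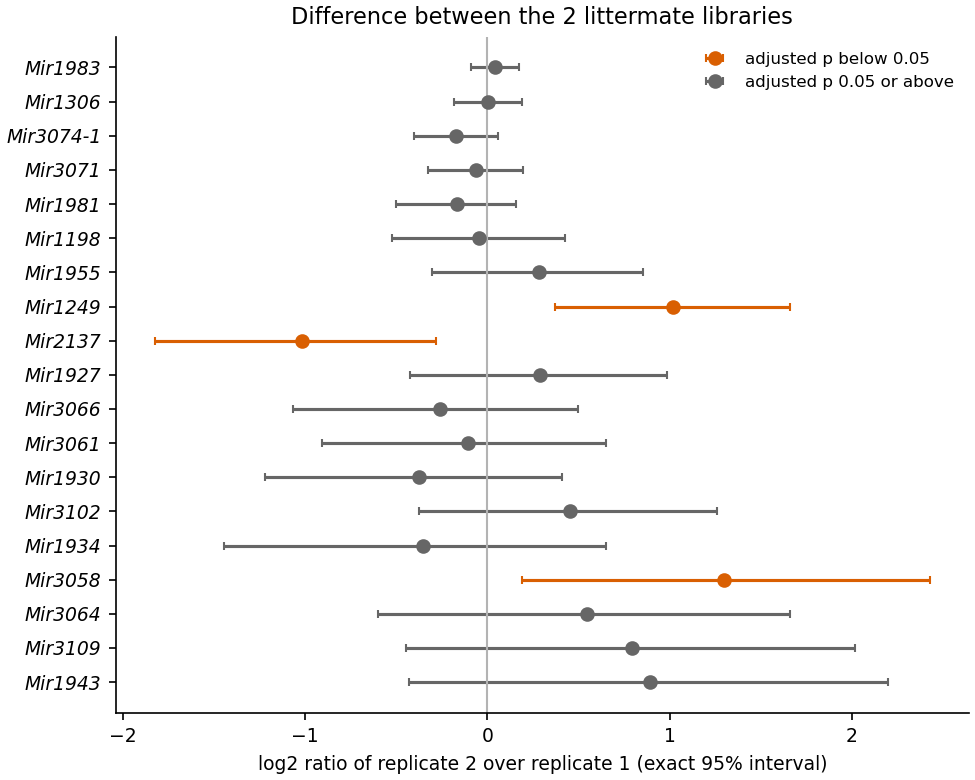
Scaled log2 ratio between the libraries, replicate 2 to replicate 1, with 95% exact bounds, for the 19 detected members, ordered by mean level from the top. The 3 members with an adjusted p below 0.05 are orange; intervals widen from Mir1983 (-0.09 to 0.17) to Mir1943 (-0.43 to 2.20).

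The other 16 detected members did not pass the test. Of all 19, 10 had a ratio above 0, and 16 differed by less than 2-fold. The median absolute log2 ratio was 0.29 for the members and 0.21 for all 294 genes. Mir1983, with the most counts, had a log2 ratio of 0.04 (-0.09 to 0.17) and Mir1306 one of 0.0060 (-0.18 to 0.19), so differences larger than these bounds were outside the interval. For Mir1943, with 12 and 11 counts, the interval of -0.43 to 2.20 leaves a wide range of differences undetectable at this depth.

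No member had a lower count of 9 or 10, next to the detection limit. Inside it stood Mir1943 with a lower count of 11, and Mir1934 and Mir3109 with 12. Outside stood Mir3547 (16 and 8), Mir1298 in the serotonin receptor gene Htr2c (16 and 7), Mir3097 in Rgs12 (14 and 7), Mir3099 in Usp29 (13 and 7) and Mir3075 in Zmiz1 (19 and 6). The last ties with 4 others at 6 counts and had the most in replicate 1. Of members with at least 10 counts in 1 library only, 12 had them in the deeper replicate 1 and 1 in replicate 2. That 1 was Mir1251 in the noncoding gene Rmst, with 6 and 10.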

How the data were processed

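Small RNA of whole newborn thymus was sequenced in 2 libraries of 1 group. For each library the authors deposited unnormalized whole-number counts over miRNA genes. Per the text files beside them, reads were mapped to mm10 and annotated with GENCODE M4. The aligner and counter were not given in the sources used here. From the values, the first column sums the others, the second (used here) is the gene strand and the third the opposite strand. Unmapped, multimapping and unannotated reads were left out of library sizes.

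Of 1973 identifiers, 1894 matched GENCODE M21 (GRCm38), which gave symbols, positions and hairpins; the 79 others had 0 gene-strand counts. A host exon or intron was taken from coding transcripts. Splice ends counted as reached within 10 bases. RNAfold 2.7.2 gave folding energies. Libraries were scaled by TMM in edgeR 4.0.16 (R 4.3.3), and the binomial test (scipy 1.17.1) was tested on simulated counts. The simulated counts varied by counting error alone, so that check says nothing on further spread between libraries. Alternatives were other scalings (total counts, DESeq2 1.42.0), filters of 1 or 100 counts, both strands, a pseudocount of 0.5, each library alone and left-out members; leaving out changed gene model versions was added after seeing the data. Named genes are all detected members, the 5 just outside and members with at least 10 opposite-strand counts in both libraries. Examples beyond these (whole-intron hairpins, members of the imprinted region, seed and sequence sharers, Mir1251) were chosen after their values were seen. The members and groupings were chosen with earlier results of these data known.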

Additional observations from a re-analysis of the deposited data

Results flagged for a closer look

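Reads on the strand counted as opposite to Mir3074-1, outside the gene-strand counts used for the levels, stood above the floor of 3 counts in both libraries. There were 116 in replicate 1 and 89 in replicate 2. In M21 Mir24-1 lies opposite, but the strand of the counted gene model could not be checked. The source of the reads was not tested.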

How the results depend on the processing

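The number of detected members was 19, and 66 with 1 count in both libraries or 5 with 100 counts in both, both by construction. Each library alone gave 20 to 31. It was 19 with both strands, 18 without members that share 20 bases and 16 without those of another gene model version. The share of 0.159% was 0.141% with both strands, whose totals were 3202488 and 1504777, 0.140% without sequence sharers, 0.106% without Mir1983 and 0.100% without members of another gene model version, and 0.155% to 0.162% in each library alone. The count of called members was 3 of 19 under total counts (124 of all 294 genes tested), DESeq2 size factors (119 of 294) and both strands (131 of 304). These were the same 3 genes. With 1 count in either library, 2 of them were called among 85 members, beside 124 of 684 genes. It was 0 of 5 with 100 counts in both libraries (115 of 191 genes), which leaves the 3 called genes out. The 3 did not pass edgeR's negative binomial test after adjustment, nor did nearly all other genes tested. That test took a common dispersion over all genes from the same 2 libraries it compared, so it cannot decide whether the 3 calls hold. The calls rest on counting error alone. The median log2(CPM + 1) of 4.39 was 4.36 with a pseudocount of 0.5 CPM, and 4.24 to 4.27 in each library alone. No ratio that passed the test changed direction. Mir3074-1 turned from -0.17 to 0.022 with both strands, a setting that adds its 116 and 89 reads of the other strand. With total counts, which shift the ratios of all genes alike, Mir3071 turned from -0.063 to 0.0033 and Mir1198 from -0.044 to 0.023. No paired analysis was possible because both libraries belong to 1 group. Replicate 1 had 2.12 times the counts of replicate 2, so replicate 2 limits the precision of low members more.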
